A study of Homo sapiens with 6 samples.

Results

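The olfactory receptor genes of human chromosome 11 were examined in peak lists from K562 cells, to see where active transcription start regions were called. The members were the protein-coding genes of chromosome 11 in GENCODE release 29 (build GRCh38) whose symbol begins with OR, followed by a number, letters and a number. The rule found 167 genes, which is 12.8% of the 1309 protein-coding genes of chromosome 11, out of 19864 on chromosomes 1 to 22 and X. Of these, 54 belonged to families 51 and above (class I) and 113 to lower-numbered families (class II). The symbols of 2 members, OR51C1P and OR5D3P, carry the suffix P, although the annotation lists them as protein-coding.

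Olfactory receptors are G protein-coupled receptors that bind odorants on the cilia of olfactory sensory neurons. Each such neuron expresses 1 receptor allele, while the other receptor genes lie silent in compact chromatin marked by histone H3 lysine 9 methylation. Class I receptors resemble those of fish and sit in one large cluster on the short arm of chromosome 11, and the beta-globin genes lie inside that cluster. The globin genes are active in erythroid cells, so that in such cells the region holds an active locus between receptor genes.

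The libraries came from untreated K562, an established human leukaemia line with erythroid features that the labels call lymphoblastoid. Run-on sequencing (PRO-seq) labels the nascent RNA of engaged polymerases with biotin and maps their positions. There were 3 groups of 2 replicates each, with at least 3 passages between replicates: the published protocol with 3 affinity purifications on 1M cells (PRO-seq 1M), a shortened protocol with 1 purification and the same input (qPRO-seq 1M), and that shortened protocol with an input of 250k (qPRO-seq 250k). Libraries were amplified by 11 PCR cycles at 1M and by 14 at 250k, so input and cycle number cannot be told apart between the qPRO-seq groups. Each group had 1 list of dREG peaks; dREG is a classifier that calls active promoters and enhancers from run-on reads on both strands. On chromosomes 1 to 22 and X the lists held 24707, 38177 and 15562 peaks. Here and below, 3 values in a row are those of PRO-seq 1M, then qPRO-seq 1M, then qPRO-seq 250k, unless a list is named. No read counts were analysed here, so the depth behind the lists is unknown, and the absence of a peak means that no start region was called at that depth.

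Because replicates were not listed apart, their spread could not be measured and no test was made between groups. Shares are given with Wilson 95% intervals, which cover counting error only and are too narrow where neighbouring genes or peaks are not independent. The score of a peak is given as its percentile among all peaks of the same list, where 100 is the top score. The marker lists were read against the label first. Of 8 erythroid genes, 7, 8 and 6 had a peak within 500 bp of a transcript start, among them GATA1, TAL1 and KLF1 in each list. Over all protein-coding genes, 52.9%, 54.5% and 44.0% had such a peak. Among lymphoid genes, RAG1 had one in each list, and the B-cell markers CD79A, MS4A1 and PAX5 and the T-cell markers CD3E, CD2 and CD7 had none. Of 4 olfactory neuron genes, 1, 2 and 1 had one: ADCY3 in each list and GNAL in the qPRO-seq 1M list, while OMP and CNGA2 had none. These 4 genes are too few to be told apart from the shares over all protein-coding genes.

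Promoter windows are shown for 3 receptor genes and 2 of their neighbours, as examples of receptor starts without a peak and of neighbours with one; 5 chosen windows say nothing about the family. Each window runs from 250 bases before to 50 bases after the transcript start in RefSeq (build GRCh38.p14), on the minus strand, and capitals mark CG dinucleotides. OR52A5 (chr11:5138307-5138606) and OR51V1 (chr11:5200633-5200932) lie on the centromere-distal side of the globin genes, and OR8D2 (chr11:124320148-124320447) lies beside OR8D1 on the long arm. TRIM68 (chr11:4608182-4608481) and PATL1 (chr11:59668988-59669287) lie between receptor genes.
OR52A5: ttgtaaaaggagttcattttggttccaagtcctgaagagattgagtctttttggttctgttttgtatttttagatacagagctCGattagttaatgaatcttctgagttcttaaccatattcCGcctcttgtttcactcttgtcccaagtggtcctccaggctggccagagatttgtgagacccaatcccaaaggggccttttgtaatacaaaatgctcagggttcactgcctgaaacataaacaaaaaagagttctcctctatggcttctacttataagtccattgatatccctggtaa
OR51V1: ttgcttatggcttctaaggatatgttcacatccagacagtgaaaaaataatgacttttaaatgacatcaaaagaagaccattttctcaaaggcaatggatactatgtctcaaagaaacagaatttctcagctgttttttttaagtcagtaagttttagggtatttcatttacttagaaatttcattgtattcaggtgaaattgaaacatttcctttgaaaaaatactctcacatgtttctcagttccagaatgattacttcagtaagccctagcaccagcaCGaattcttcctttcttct
OR8D2: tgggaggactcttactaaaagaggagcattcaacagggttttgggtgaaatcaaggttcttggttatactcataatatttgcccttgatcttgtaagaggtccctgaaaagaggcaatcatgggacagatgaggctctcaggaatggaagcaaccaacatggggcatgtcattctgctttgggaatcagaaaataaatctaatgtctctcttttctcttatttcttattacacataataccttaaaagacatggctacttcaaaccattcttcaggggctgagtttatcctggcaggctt
TRIM68: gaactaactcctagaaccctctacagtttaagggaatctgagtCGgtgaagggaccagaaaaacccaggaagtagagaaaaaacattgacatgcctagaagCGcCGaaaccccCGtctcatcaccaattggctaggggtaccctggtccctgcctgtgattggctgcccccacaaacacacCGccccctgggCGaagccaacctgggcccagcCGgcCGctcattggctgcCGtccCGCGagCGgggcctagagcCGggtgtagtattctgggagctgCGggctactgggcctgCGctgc
PATL1: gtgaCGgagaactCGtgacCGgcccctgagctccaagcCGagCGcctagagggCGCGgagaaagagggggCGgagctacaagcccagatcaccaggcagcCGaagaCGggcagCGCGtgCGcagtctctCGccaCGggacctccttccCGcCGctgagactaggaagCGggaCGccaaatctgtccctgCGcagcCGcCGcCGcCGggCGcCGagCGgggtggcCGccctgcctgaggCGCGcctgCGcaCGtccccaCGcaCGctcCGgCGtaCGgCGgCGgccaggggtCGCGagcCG
The OR52A5 window held 2 CG dinucleotides and 40% G and C, the OR51V1 window held 1 and 32.7%, and the OR8D2 window held 0 and 40.7%. The TRIM68 window held 15 and 60%, and the PATL1 window held 42 and 73.7%. Over the 27195 RefSeq promoter windows searched, the median was 14 CG dinucleotides (quartiles 3 and 28) and 58.3% G and C (quartiles 46.7% and 67.7%). No peak of the 3 lists touched the 3 receptor windows, while the TRIM68 window was touched by a peak in both 1M lists and the PATL1 window in all 3. The letters GATAA, searched on both strands, occurred in 23.2% of all windows and once in OR8D2. CACCC occurred in 58.9% of windows and once each in OR8D2, TRIM68 and PATL1, and TATAAA in 12.0% of windows and in none of the 5 shown. OR52A5 and OR51V1 held none of the 3 motifs. Promoter entries were matched for 132 of the 167 members (79.0%), below the 80% needed to summarise base composition over the family, so that check was void.

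Receptor genes almost never had a start peak. A member counted if the list had a peak no more than 500 bp from one of its GENCODE transcript starts. In the PRO-seq 1M list 1 of 167 members did (0.599%, interval 0.106% to 3.31%), against 52.9% of all protein-coding genes. In the qPRO-seq 1M list 2 of 167 did (1.20%, interval 0.329% to 4.26%), against 54.5%. In the qPRO-seq 250k list 1 of 167 did (0.599%), against 44.0%. The member in all 3 lists was OR51B5, a class I receptor gene beside the globin cluster, and the other in the qPRO-seq 1M list was OR8D1, a class II gene of the long arm. The lists thus differed by 1 gene, OR8D1. The counting intervals do not measure differences between lists, which were scored on the same genes.

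The remainder of chromosome 11 did not share this. Of its 1142 other protein-coding genes, 622 had a start peak under PRO-seq 1M (54.5%, interval 51.6% to 57.3%). With qPRO-seq the numbers were 631 at 1M (55.3%, interval 52.4% to 58.1%) and 512 at 250k (44.8%, interval 42.0% to 47.7%). Among the receptor genes on other chromosomes, 0 of 219 had a start peak in each list. With 3 counts as the limit for a count of 0, this allows a share of up to 1.37% (Wilson limit 1.72%). The bitter taste receptors (TAS2R), another family of sensory receptors, had 0 of 24 in each list. So few genes allow a share of up to 12.5% by the same limit (Wilson limit 13.8%). Among 204 receptor pseudogenes of chromosome 11, which carry no intact reading frame, 2, 4 and 1 had a start peak. The one pseudogene in all 3 lists, OR52K3P, shared its peak with the start of TRIM21, a ubiquitin ligase that binds antibodies inside cells. Without OR51B5 the members stood at 0 of 166, 1 of 166 and 0 of 166. By the limit of 3 counts, 0 of 166 allows a share of up to 1.81%.

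**Figure D1:**
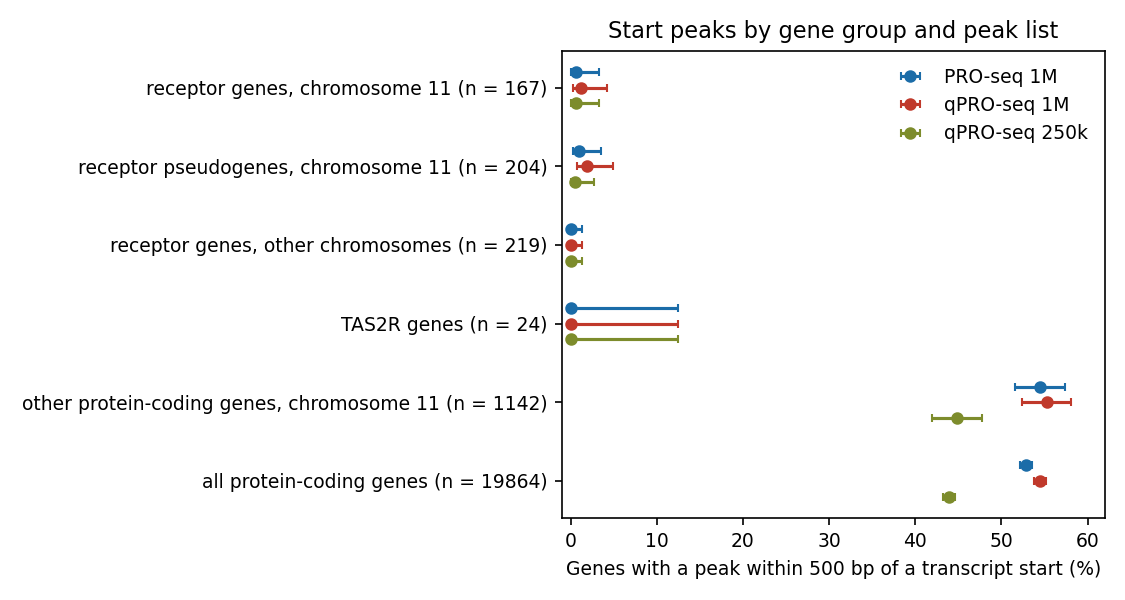
Share of genes with a dREG peak within 500 bp of a transcript start (x axis, percent) for 6 gene groups (y axis) in the 3 peak lists; points are shares and bars are Wilson 95% intervals, or for a share of 0 the limit of 3 counts. Receptor genes of chromosome 11 sit between 0.599% and 1.20%, and other protein-coding genes of the same chromosome between 44.8% and 55.3%.

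OR51B5 is the exception that lies beside the globin genes, with its record 33.6 kb from their coding parts. Its record spans chr11:5303444-5505652 on the minus strand and holds 5 transcripts with 3 start positions. The single transcript that encodes the whole receptor begins at its coding start, position 5343524. The other 4 transcripts begin 162 kb further upstream, at 5505613 or 5505652, where long transcripts annotated to the fetal and embryonic globin genes HBG2 and HBE1 begin too. The annotation gives 3 of these 4 as processed transcripts without a reading frame and 1 as a non-stop decay product.

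The called peaks lay at the long start and not at the receptor's own. The PRO-seq 1M peak spanned chr11:5505311-5506010 with a score of 1.06 (percentile 92.0). The qPRO-seq 1M peak spanned chr11:5505331-5506010 with a score of 1.09 (percentile 96.3), and the qPRO-seq 250k peak chr11:5505251-5505960 with 0.903 (percentile 90.7). The region was thus high in score in each list, at both inputs and with both protocols. The deposited p-value was 0 in both 1M lists and 7.99e-12 in the 250k list. A deposited value of 0 was common, with 19.6%, 21.1% and 12.4% of all peaks. Measured from the start of the receptor-coding transcript, the nearest peak was 67.4 kb, 57.99 kb and 67.4 kb away. With starts limited to those within 10 kb of a gene's coding part, OR51B5 no longer counted and the totals were 0, 1 and 0 of 167. A start shared with HBG2 and HBE1 cannot be assigned to 1 of these genes from a peak list.

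Receptor genes closer to the globins than that start had no start peak. The coding parts of HBB, HBD, HBG1, HBG2 and HBE1 span chr11:5225601-5269890 (44.3 kb), and 18 members lie within 300 kb of them. OR51B5 was the 1 of these 18 with a start peak. OR51V1, the nearest receptor gene on the HBB side, lies 24.9 kb from the globin coding parts, and its nearest peak was 49.2 kb, 33.8 kb and 33.8 kb away. OR51B4, the nearest on the HBE1 side at 31.1 kb, had its nearest peak at 25.9 kb, 16.4 kb and 25.8 kb. The 100 kb between OR51V1 and OR51B4, which holds the globin genes, had 4, 9 and 5 peaks. None of them lay within 10 kb of a start of either receptor gene. HBG1, a fetal globin gene, had a start peak in the 3 lists, HBD in both qPRO-seq lists, and the adult gene HBB in none. Apart from the long start shared with OR51B5, HBE1 had a start peak inside this stretch in the 3 lists. HBG2 had one there in both 1M lists, shared with a start of AC104389.5.

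The receptor genes that follow OR51B4 inside the long OR51B5 record also lay far from peaks, although the start of that record was called. OR51B2 had its nearest peak at 48.2 kb, 38.8 kb and 48.2 kb, and OR51B6 at 75.4 kb, 66.0 kb and 75.4 kb. OR51M1, in the middle of the record, was 108 kb, 98.3 kb and 108 kb from a peak. OR52D1, close to the upstream end, was 16.6 kb, 15.6 kb and 16.6 kb from one. The 281 kb from OR51B4 to OR52B6, with 11 receptor genes, held 1, 2 and 1 peaks. The second qPRO-seq 1M peak there, chr11:5504291-5504550 at percentile 27.8, lay 1.06 kb inside the long start.

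OR52A5 was the only member besides OR51B5 and OR8D1 with a peak inside its record. This class I gene (chr11:5128776-5138356, minus strand, 87.2 kb from the globins) has a start 5.71 kb before its coding part. The PRO-seq 1M list had a peak at chr11:5131731-5132120 at percentile 1.24, close to the lowest score of the list. The qPRO-seq 1M list had a peak overlapping it, chr11:5131811-5132350, at percentile 61.7. It also had a second, chr11:5129151-5129990, at percentile 89.98 with a deposited p-value of 0, as for 21.1% of the peaks of that list. The qPRO-seq 250k list had chr11:5129271-5129670 at percentile 55.2 overlapping this second peak. The first pair overlapped the receptor's coding part, the only coding part of a member to be overlapped by a peak in these lists. None of the 4 peaks was near its annotated starts: the nearest distances were 6.13 kb, 5.90 kb and 8.58 kb. Its neighbour OR52A1 had a peak 5.40 kb from a start in the qPRO-seq 1M list (chr11:5160161-5160600, percentile 32.6) and none nearer than 20.2 kb and 22.7 kb in the others. These and OR51B5 were the 3 of the 18 globin neighbours with any peak within 10 kb of a start. The remaining members of the 18 on the OR52A5 side, from OR51A4 to OR52E2, were between 69.5 kb and 184 kb from a peak.

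**Figure D2:**
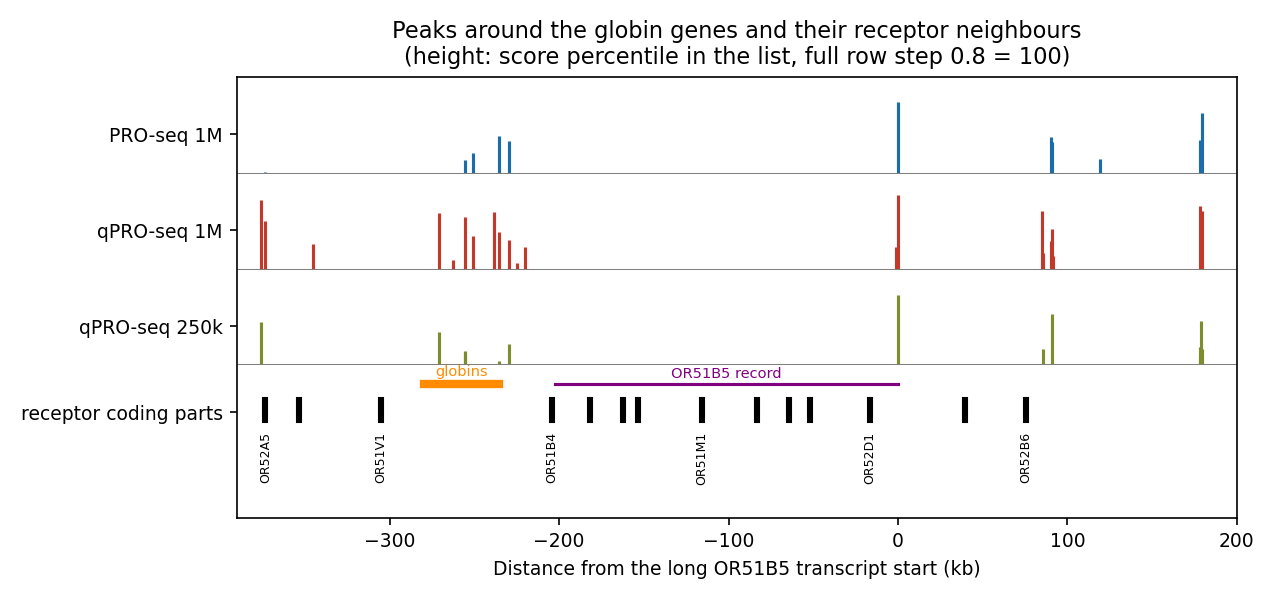
Peaks of the 3 lists around the globin genes, by distance in kb from the long OR51B5 transcript start (x axis); the height of each line is the score percentile within its list, and black marks are receptor coding parts. Peaks at percentile 90.7 or above stand at 0 kb in the 3 rows, those between OR51V1 and OR51B4 reach 47.3, 73.7 and 42.4, and the stretch under most of the OR51B5 record, from OR51B4 to OR52D1, is empty but for the peaks at its upstream end.

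OR8D1 was called in 1 list only. This class II gene (chr11:124302831-124315099, minus strand) has 3 transcript starts, 0.071 kb, 3.18 kb and 4.33 kb before its coding part. The qPRO-seq 1M peak chr11:124315021-124315360 covered the farthest of these, at position 124315099, with a score of 0.805 (percentile 77.5, deposited p-value 4.63e-09). The nearest peak of another list lay 89.8 kb from this peak. From the gene's own starts the nearest peak was 85.6 kb away under PRO-seq 1M and 140 kb away under qPRO-seq 250k. The qPRO-seq 1M list is the longest of the 3, and 33.3% of all its peaks overlapped no peak of another list.

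A few members came close without being called. OR2AT4, a class II gene alone on the long arm, had a peak 1.93 kb, 1.89 kb and 1.93 kb from its start. That peak lay between 1.19 kb and 1.25 kb from a start of SLCO2B1, an organic anion transporter gene. OR2D3 was 5.23 kb, 4.51 kb and 5.09 kb from a peak, which lay at the start of the zinc-finger gene ZNF215 in each list. OR8D2 was 4.93 kb from the OR8D1 peak in the qPRO-seq 1M list, and 95.04 kb and 150 kb from a peak in the other lists. Counting any peak within 10 kb upstream of a coding start gave 1, 3 and 1 members: OR2AT4 in each list, with OR52A1 and OR8D1 in the qPRO-seq 1M list as well. The annotation bears on these counts, since 45 members have no leader before the coding start in it, and 69 have a start at least 1 kb upstream.

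The distance to the nearest peak shows how isolated the family is. Members lay a median of 149 kb from a peak under PRO-seq 1M (quartiles 64.0 kb and 268 kb). The medians under qPRO-seq were 147 kb at 1M (quartiles 50.97 kb and 641 kb) and 208 kb at 250k (quartiles 80.4 kb and 729 kb). The median of the other protein-coding genes of chromosome 11 was 0 kb in both 1M lists and 4.87 kb in the qPRO-seq 250k list. Only 4, 10 and 5 members were within 10 kb of a peak, and 68, 74 and 51 were within 100 kb. The member farthest from a peak was OR4C46, a class II gene outside the clusters, at 1797 kb, 2633 kb and 2721 kb.

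**Figure D3:**
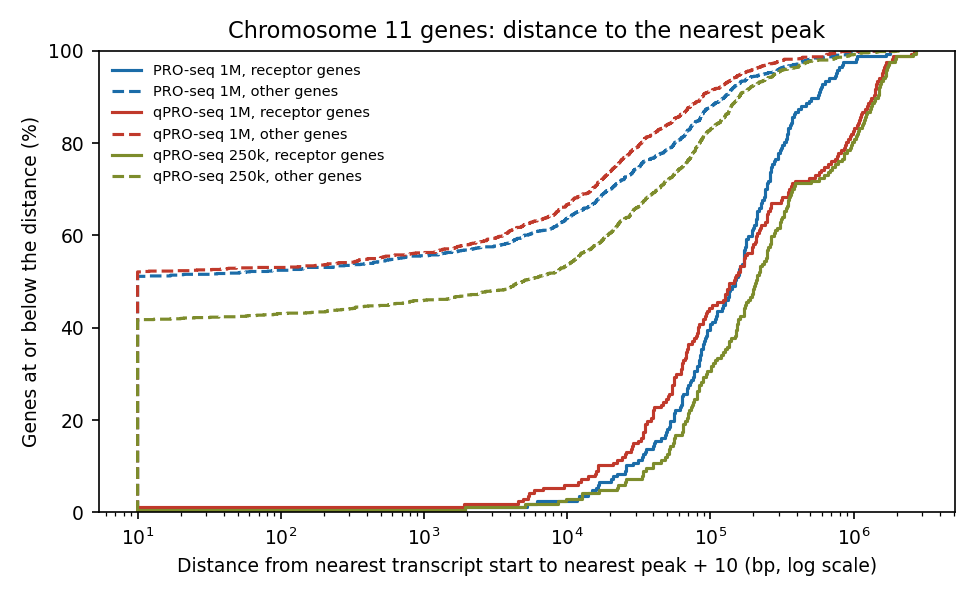
Share of chromosome 11 genes (y axis, percent) whose nearest transcript start lies at or below a given distance from the nearest peak (x axis, bp plus 10, log scale), for receptor genes (solid lines) and other protein-coding genes (dashed lines) in the 3 lists. The solid lines stay near 0 up to several kb and reach 50% near 149 kb, 147 kb and 208 kb, where the dashed lines are above 80%.

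Members are grouped along the chromosome. Taking runs of at least 3 members with neighbours no more than 200 kb apart gave 8 clusters of 5.48 Mb in all, with 161 members; 6 members (OR4C13, OR4C12, OR4C46, OR4A5, OR5AK2 and OR2AT4) lay outside. All 54 class I genes fell into the first cluster (chr11:4367263-6200259), with the globin genes. The clusters held 36, 64 and 30 peaks. These are 6.57, 11.7 and 5.47 peaks per Mb, against 9.68, 14.4 and 6.03 per Mb on the remainder of chromosome 11, which includes the centromere.

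Most of these peaks stood in a few gaps between receptor genes that hold genes of other kinds. The second cluster (OR2AG2 to OR2D3), the third (OR5P2 to OR10A3) and the sixth (OR9Q1 to OR5B21), with 8, 4 and 13 members, had 0 peaks in the 3 lists. The fifth, chr11:55343151-56748697, with 45 members over 1.41 Mb, had 1 peak under PRO-seq 1M and 0 under qPRO-seq at either input. That peak, chr11:56401271-56401800 near OR5R1, had percentile 5.06. The fourth (chr11:48216810-48489780, 7 members) had 2 peaks in the qPRO-seq 1M list alone.

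The seventh cluster (chr11:59358895-59713845, 8 members) had the most peaks for its length, 16, 23 and 13. Every one of them lay in the 192 kb between OR4D9 and OR10V1, and the 162 kb with the other receptor genes, from OR5AN1 to OR4D9, had 0. That gap holds OSBP, which encodes an oxysterol-binding protein, and PATL1, which encodes an mRNA decay factor, as well as the noncoding gene AP000442.1. The PATL1 start peak had percentiles 95.1, 99.3 and 97.6, the highest of any peak in the clusters in each list. A peak away from any annotated start, chr11:59545051-59546170 in the PRO-seq 1M list, lay 30.1 kb from OR4D9, with percentile 93.2. It had partners at percentiles 95.1 and 88.6 in the qPRO-seq lists at 1M and 250k.

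The first and the eighth cluster also had peaks in gaps and receptor stretches with 0, but other receptor stretches of both held peaks. In the first, the 155 kb between OR52B6 and OR56B1 had 6, 9 and 6 peaks and holds TRIM6, TRIM34, TRIM5 and TRIM22, of which TRIM5 is known for blocking retroviruses. The 464 kb from OR56B1 to OR52W1, with 17 members, had 0 peaks in the 3 lists. The 833 kb from OR52B4 to OR51V1, with 26 members, had 4, 6 and 2, which include the starts of TRIM21 and TRIM68. In the eighth (chr11:123753488-124582942), the 288 kb from OR6X1 to OR10G7 with 11 members had 0. The 142 kb between OR10G7 and OR10D3, which holds VWA5A, had 3, 8 and 3, and the 400 kb from OR10D3 to OR8A1, again with 11 members, had 1, 5 and 0.

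A stricter grouping leaves these gaps out. Runs of members no more than 100 kb apart took in 157 members in 11 runs of 4.56 Mb. They held 7, 15 and 3 peaks, or 1.54, 3.29 and 0.658 per Mb. Of these, 3, 3 and 1 stood at the starts of TRIM21 and TRIM68, and 1 in each list at the long OR51B5 start. What remained was 3, 11 and 1 peaks (0.658, 2.41 and 0.219 per Mb). Away from the start of any gene there were 2, 7 and 1 peaks, or 0.439, 1.54 and 0.219 per Mb. The 130.5 Mb of chromosome 11 outside these runs, a stretch that includes the gaps described above, had 2.72, 5.94 and 1.49 such peaks per Mb.

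The remaining peaks are given list by list, since percentiles of lists of different lengths cannot be set against each other. The 3 of the PRO-seq 1M list had percentiles 1.24, 5.06 and 7.05, all close to the bottom of that list. The 11 of the qPRO-seq 1M list ran from 9.52 to 89.98 with a median of 61.7, and the 1 of the qPRO-seq 250k list was at 55.2. In the qPRO-seq 1M list 8 of the 11 overlapped no peak of another list (72.7%, interval 43.4% to 90.3%), against 33.3% of all peaks of that list. The same held for 1 of the 3 PRO-seq 1M peaks (interval 6.15% to 79.2%) and 0 of the 1 at 250k, so the lists could not be told apart by this share. The peaks set aside at the TRIM21, TRIM68 and OR51B5 starts all overlapped another list. With them included, 8 of the 15 qPRO-seq 1M peaks in the runs overlapped none. The 33.3% also includes peaks at gene starts, so it is not a like baseline for the 11. The top-scored of these 8 was the OR8D1 peak. Next were chr11:48270601-48271140, 6.74 kb from OR4X1 with percentile 69.0, and chr11:124207341-124207940 at the pseudogene OR8F1P with percentile 63.9. The other 5 had percentiles from 9.52 to 32.6. Peaks at the pseudogene OR8G2P recurred in both 1M lists, at percentile 7.05 in PRO-seq 1M and 73.5 in qPRO-seq 1M. List length and protocol differ together between the lists, and their part in these counts was not tested.

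**Figure D4:**
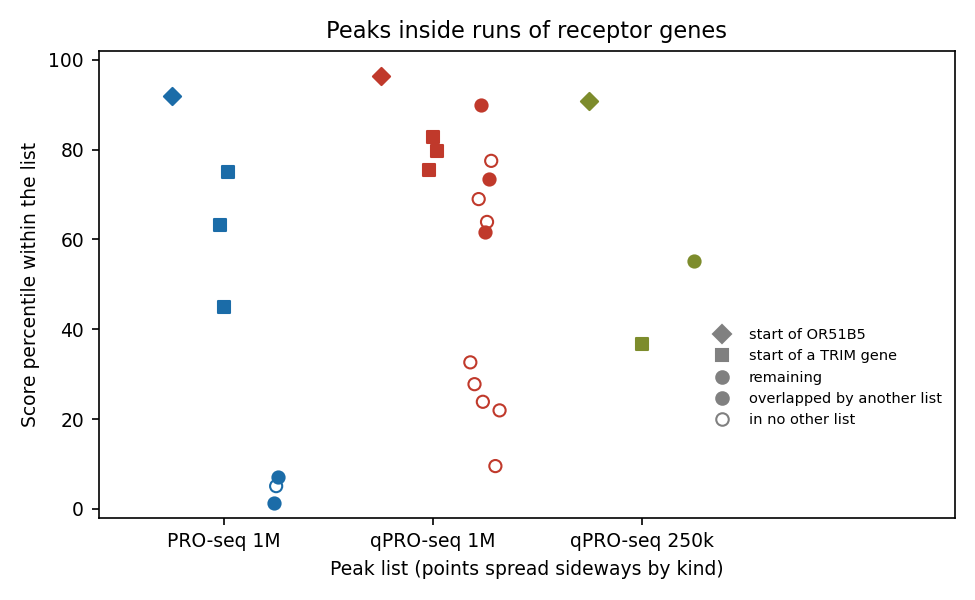
Score percentile within its list (y axis) of every peak inside the runs of receptor genes no more than 100 kb apart, by peak list (x axis); diamonds mark the long OR51B5 start, squares the TRIM21 and TRIM68 starts and circles the remaining peaks, filled where another list overlaps them. The OR51B5 diamonds lie at 90.7 or above in the 3 lists, the PRO-seq 1M circles at 7.05 or below, and 8 of the 11 qPRO-seq 1M circles are open.

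Over the 8 clusters as first defined, recurrence was close to that of all peaks. Peaks overlapped by at least 1 bp by a peak of another list made up 91.7% under PRO-seq 1M (interval 78.2% to 97.1%), 70.3% under qPRO-seq 1M (58.2% to 80.1%) and 100% of the 30 at 250k (from 88.6%). The shares over all peaks were 91.5%, 66.7% and 97.7%. Joined across lists, the cluster peaks made 53 regions, of which 18 were in all 3 lists (33.96%, against 34.5% of all regions of the genome). Regions in 1 list alone numbered 3, 19 and 0 (5.66%, 35.8% and 0%, against 6.14%, 37.0% and 1.04% of all regions). In tiles of 100 kb, 81.1% (interval 68.6% to 89.4%), 71.7% (58.4% to 82.0%) and 84.9% (72.9% to 92.1%) of 53 cluster tiles had no peak. The 1039 tiles of the remainder of chromosome 11 gave 58.7%, 50.2% and 66.4%, each below the interval of the clusters.

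Start peaks were also looked up for genes that work with the receptors, in lists too short to be told apart from all protein-coding genes (52.9%, 54.5% and 44.0%). Of 8 signal transduction genes, 2, 3 and 2 had a start peak. ADCY3, the adenylyl cyclase of olfactory cilia, and CNGA4, a subunit of the cyclic nucleotide-gated channel, were in each list. GNAL, the G protein that couples the receptors, was in the qPRO-seq 1M list alone, at percentile 20.5. The chaperones that carry receptors to the membrane (RTP1, RTP2 and REEP1) had 0 of 3 in each list. Of 10 regulators of receptor choice, 7, 7 and 6 did. KDM1A, a histone demethylase, had percentiles 98.4, 95.6 and 98.4, and LBR, the lamin B receptor that tethers heterochromatin, 99.6, 95.2 and 94.6. LDB1, ATF5, CBX5 and EHMT1 were in each list, EBF1 in both 1M lists, and the transcription factors LHX2 and EMX2 in none. EHMT2, a histone H3 lysine 9 methyltransferase, had none either. For the genes above, which transcript start was called, and whether another gene shares it, is not given here. Of the 10 TRIM genes listed on the chromosome, 7, 6 and 5 had a start peak.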

How the data were processed

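Run-on libraries of K562 (6 libraries, 3 groups of 2 replicates, grouped by sample title) were analysed through 3 deposited dREG peak lists, 1 per group. Per the labels, each list is named for both replicates of its group; how replicates were pooled and the version and thresholds of dREG are not given in the sources used here. The submitters' processing notes name fastp 0.20.0, Bowtie2 2.3.5.1, deepTools 3.1.3, UMI-tools and builds hg38 and GRCh38, without their order. The lists give positions, a score with no fixed unit and a p-value per peak, all as deposited by the authors without a header; whether the p-value was adjusted is not given in the sources used here. Depth is unknown.

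Gene positions were those of GENCODE release 29. Distances, overlaps (at least 1 bp), clusters, tiles and Wilson 95% intervals were computed with python 3.11.15, pandas 2.3.3, numpy 2.4.6 and scipy 1.17.1, and figures with matplotlib 3.10.9; the functions were tested on simulated data. The limit given by a count of 0 is 3 counts of the total. Peak starts are printed counted from 1. Genes named were members with a start peak, members within 300 kb of the globins, the 3 nearest members without one, neighbours with a start peak, genes of lists and the top peaks of clusters. A gene of the lymphoid marker list is not reported here. The members and lists were chosen with earlier results of these data known. Alternatives tried covered the window, the starts, list sizes, p, merging, cluster distance and overlap. Peaks on sequences other than chromosomes 1 to 22 and X were left out.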

Additional observations from a re-analysis of the deposited data

Results flagged for a closer look

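The qPRO-seq 1M list held 4 peaks on an alternate scaffold of chromosome 11, sequence that the comparisons of receptor genes do not use. The qPRO-seq 250k list held 3 peaks on another alternate scaffold of the chromosome, and the PRO-seq 1M list held 0. Receptor genes on these scaffolds were not analysed here.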

How the results depend on the processing

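Of 57 values recomputed under alternatives, 41 stayed within 1.5 times the count or within the interval of the value reported, and 16 moved. The count of members with a start peak moved only when starts were limited to those within 10 kb of the coding part, to 0, 1 and 0 (PRO-seq 1M first, qPRO-seq 250k last), since the long OR51B5 transcripts then drop out. Peaks per Mb inside the clusters depended on how clusters were drawn: with members no more than 100 kb apart they fell to 1.54, 3.29 and 0.658, and with only peaks away from starts of other genes to 2.92, 6.38 and 2.74. Lists of equal size (15562 peaks) gave 4.01 and 5.84 in the 1M lists (PRO-seq first), and merging peaks within 500 bp gave 7.30 for qPRO-seq 1M. The share of cluster peaks overlapped by another list fell to 56.2% (qPRO-seq 1M) and 86.7% (qPRO-seq 250k) when 50% of both peaks had to overlap, and to 57.8% and 76.7% when centres had to lie within 100 bp. The count of members with a peak within 10 kb upstream of a coding start was added after seeing the data. Its totals were labelled as unmoved, but the members differed: OR2AT4 counted in each list and OR51B5 in none.

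No paired analysis was possible because each group has 1 list for both replicates, and for the same reason leaving out a replicate was not run. Motif counts at the peaks, planned at first, were not run because no genome sequence was used here, and promoter windows took their place. Unknown depth limits what the missing peaks show: a receptor gene with few run-on reads and one with none look alike in a peak list.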
